A study of Mus musculus with 9 samples.

Results

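Pericytes and stellate cells are mesenchymal cells that sit on or near small vessels, and 10 genes used to mark them were read in mouse pancreatic stellate cells cultured in 3 media. The genes were Des, Cygb, Rgs5, Cspg4, Mcam, Abcc9, Kcnj8, Angpt1, Nes and Ngfr. They were chosen by symbol from a table of raw gene counts, where all 10 had a row among 17156 genes. A filter on low counts left 13613 genes for testing and 8 of the 10 markers, since Abcc9 and Kcnj8 were near zero.

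The cells were wild-type pancreatic stellate cell lines from C57BL/6J mice, kept for 4 days in 1 of 3 media with 3 libraries each. MG-CM was the control, named Matrigel-conditioned or control medium and described as DMEM with 5% FBS. CM was medium conditioned by pancreatic tumour organoids, and CM-JAKi was CM with 500 nM AZD1480, an inhibitor of JAK kinases. Replicate 1 of each medium was line PSC4, replicate 2 was PSC5-I and replicate 3 was PSC5-II, both of the last given as line PSC5, and each number had its own source of CM. In CM and CM-JAKi, line PSC4 and its source of CM therefore cannot be told apart. PSC5-I and PSC5-II share a line and differ in source. The FBS content of CM and any vehicle for the inhibitor are not given in the sources used here. AZD1480 was read in CM but not in MG-CM.

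Quiescent stellate cells of liver and pancreas store vitamin A and carry intermediate filaments such as desmin. On activation they make collagen and come to resemble myofibroblasts. Pericytes wrap capillaries, are recognised by surface proteins such as NG2 and CD146, and send angiopoietin-1 to the receptor TIE2 on endothelial cells. No single gene defines either cell type, and several of the 10 also mark neural or smooth muscle cells.

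Libraries held 25625806 to 32466018 counts, with a count for 15678 to 15944 genes in each. Levels are CPM, the share of a gene in the library total after TMM scaling, in the usual units. Of markers for other cells, all 10 fibroblast genes were tested, while Ptprc of leukocytes had 0 to 1 counts, Epcam of epithelium 0 to 6, Cdh5 of endothelium 0 to 15, Sox10 of Schwann cells 3 to 7, Myod1 of muscle 0 to 1 and Cpa1 of acinar cells 0 to 1. Other genes of those lists were well above zero, with 400 to 3287 counts of Cd14, 1057 to 3691 of Tubb3 and 355 to 762 of Sox9. Krt19 had 22 to 648, Egfl7 131 to 298 and mesothelial Msln 33 to 2046. Endothelial Emcn had 0 to 427 counts, near zero in CM and highest in CM-JAKi. The stellate marker Gfap had 0 to 6 counts, and Lrat, the retinol-esterifying enzyme of vitamin A stores, was not analysed here. Libraries of 1 group differed by 16.0 to 115 in chi-square per degree of freedom, well beyond counting noise.

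Per kilobase of the longest coding transcript, the 10 markers covered a wide range. In MG-CM the mean level was 17.6 ± 6.46 CPM per kilobase (SD, n = 3, as for the values that follow) for Nes, 13.4 ± 3.76 for Mcam and 11.8 ± 4.75 for Cygb. These 3 overlapped between libraries. Angpt1 followed at 3.30 ± 0.607, apart from the genes above and below it, and then Rgs5 at 0.828 ± 0.311, Des at 0.565 ± 0.216 and Cspg4 at 0.384 ± 0.137, whose neighbours in the order overlapped. Ngfr stood below them at 0.0956 ± 0.00628, and Kcnj8 and Abcc9 had mean levels of 0.00897 and 0.00473. In CM the order near the top changed, with Nes at 16.4 ± 4.97, Mcam at 8.97 ± 1.38, Angpt1 at 8.36 ± 2.56 and Cygb at 3.63 ± 1.14. With the inhibitor Cygb stood second at 16.3 ± 5.77, next to Nes at 19.5 ± 7.73.

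**Figure D1:**
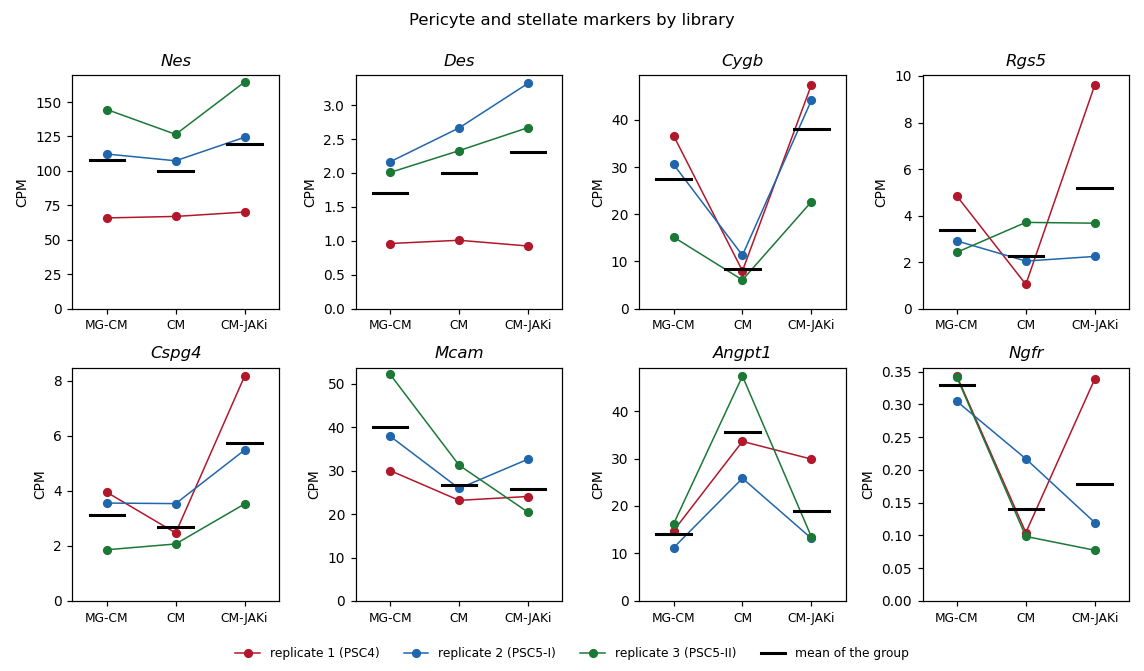
Level of the 8 tested markers in every library, as CPM on a linear axis from 0, by medium; points are libraries, lines join the libraries of the same replicate number, and black bars are group means. Cygb is lowest in CM and Angpt1 highest there within each of the 3 replicate numbers, while Nes and Des separate PSC4 from PSC5 in every medium.

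In CM against MG-CM, 2 of the 8 tested markers passed edgeR's quasi-likelihood test at an adjusted p under 0.05, adjusted over all tested genes. Angpt1 was higher, and 4.85% of all genes were called higher. Cygb was lower, and 5.39% of all genes were called lower. In CM-JAKi against CM, Cygb was called higher, which is 1 of 8 beside 10.1% of all genes, and 0 of 8 were called lower, beside 8.93%. With no adjustment, 2 were higher and 1 lower at a p under 0.05 by edgeR, and DESeq2 called 2 higher and 1 lower, beside 13.4% and 12.7% of all genes. In CM-JAKi against MG-CM 0 of 8 were called in either direction, beside 0.286% of all genes higher and 0.72% lower. There, with no adjustment, edgeR had 1 higher and 1 lower at a p under 0.05, and DESeq2 called 0, beside 3.92% of all genes in either direction. Shares of all genes at an unadjusted p under 0.05 are not given here, so the unadjusted counts cannot be set against them. The first and second comparisons share the CM libraries, and each shares a group with the third, so their values stand side by side and are not counted as independent.

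With the replicate number as a block, 3 of 8 markers were called higher and 1 lower in CM-JAKi against CM, where 18.6% and 15.6% of all genes were called. Counts for the other comparisons stayed at 1 higher and 1 lower for CM against MG-CM, where the block called 11.6% and 12.8% of all genes, and at 0 for CM-JAKi against MG-CM, where it called 1.85% and 2.4%. The median log2 fold change of the 8 markers was -0.40 in CM against MG-CM, 0.31 in CM-JAKi against CM and 0.43 in CM-JAKi against MG-CM, and that of all genes was 0.01 in each. Libraries did not overlap between CM and MG-CM for 1 marker higher and 2 lower, beside 16% and 16.8% of all genes. Of the 2 lower, Ngfr had only 3 to 7 counts in CM and 9 to 10 in MG-CM, with 0 CM libraries at the filter's level. Between CM-JAKi and CM this held for 1 marker higher, beside 20.1% of all genes, and for 0 lower, beside 18.3%. Between CM-JAKi and MG-CM it held for 0 in either direction, beside 8.87% and 8.24%. In bulk RNA, fewer cells of a type and less RNA per cell cannot be told apart, and this holds for every difference given.

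**Figure D2:**
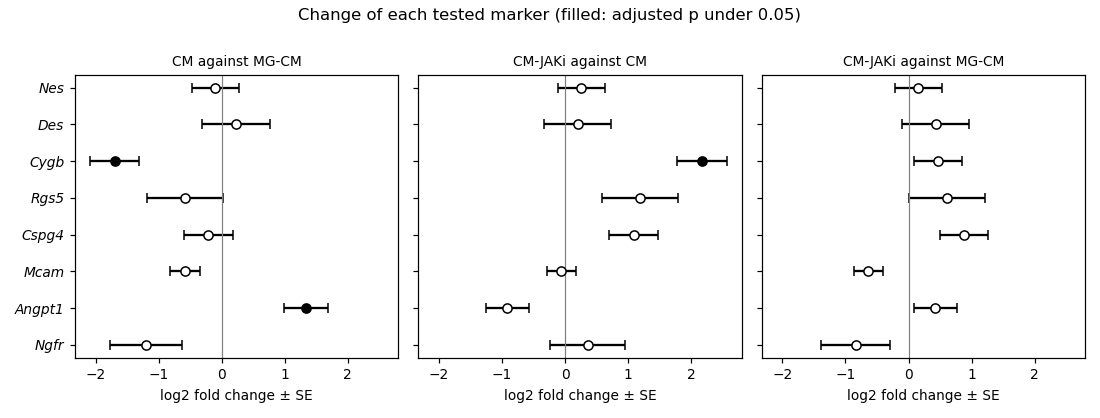
Log2 fold change of each tested marker with its standard error in the 3 comparisons, from edgeR's fit of all 9 libraries; filled points passed the test. Cygb lies furthest from 0 in CM against MG-CM (-1.70) and in CM-JAKi against CM (2.17), and no marker passed the test in CM-JAKi against MG-CM.

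Cygb, which encodes cytoglobin, a haem protein of stellate cells and fibroblasts, had the largest fold changes of the 8 tested markers both in CM against MG-CM and in CM-JAKi against CM. Its level was 36.7, 30.5 and 15.2 CPM in the MG-CM libraries, 7.99, 11.3 and 6.07 CPM in those of CM and 47.4, 44.1 and 22.6 CPM in those of CM-JAKi, here and below in the order of replicates 1, 2 and 3. All CM libraries lay below every MG-CM and every CM-JAKi library. Replicate 3 was the lowest in each medium. Cygb fell by 1.70 ± 0.39 (SE) on the log2 scale in CM against MG-CM, with an adjusted p of 0.0310 by edgeR. It rose by 2.17 ± 0.40 in CM-JAKi against CM, with an adjusted p of 0.00889. Against MG-CM the log2 fold change in CM-JAKi was 0.47 ± 0.38 and did not pass (adjusted p 0.776).

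In the fit without a block, the fall of Cygb in CM kept its direction but lost its call when some libraries were left out. By edgeR the adjusted p was 0.0777 without MG-CM replicate 1, 0.0923 without CM replicate 1, 0.108 without MG-CM replicate 2 and 0.0809 without CM replicate 3. It was 0.137 without replicate 1 in all groups and 0.226 without replicate 2. With the replicate block the fall passed (edgeR adjusted p 0.00189). It also passed with the block without replicate 1 (0.000355), 2 (0.0348) or 3 (0.0140) in all groups. Fits with the block and without a replicate number, here and below, were chosen after seeing the data. The rise with the inhibitor passed without each of the 6 libraries in turn, with adjusted p values of 0.0103 to 0.0350 by edgeR. It missed the threshold at 0.108 without replicate 2 in all groups, and passed there with the block (0.0111). The other globin genes looked at were near zero, with 0 to 2 counts of myoglobin (Mb) and 2 to 7 of neuroglobin (Ngb), and the filter removed both.

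Angpt1 encodes angiopoietin-1, the pericyte ligand that activates TIE2. Its level was 14.8, 11.2 and 16.2 CPM in MG-CM medium, 33.6, 25.8 and 47.4 in CM medium, and 29.9, 13.2 and 13.5 in CM-JAKi medium. Every CM library exceeded every MG-CM library. With the inhibitor PSC4 stayed near its CM level and both PSC5 libraries were within the range of MG-CM. Angpt1 rose by 1.34 ± 0.35 on the log2 scale in CM against MG-CM, with an adjusted p of 0.0455 by edgeR. In CM-JAKi against CM its log2 fold change was -0.91 ± 0.35 and its adjusted p 0.0978, while with the replicate block it was -0.95 with an adjusted p of 0.0400.

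The call of Angpt1 in CM rested on a narrow margin. It was lost without MG-CM replicate 1 (edgeR adjusted p 0.0927), CM replicate 1 (0.0928), MG-CM replicate 2 (0.163), MG-CM replicate 3 (0.0863) or CM replicate 3 (0.110). It was also lost with library size alone as the scaling (0.0511) and with no filter on low counts (0.0548). It passed with the replicate block (edgeR adjusted p 0.0179), with a cell line term (0.0228) and by DESeq2 (0.00181). With the block it passed without replicate 1 (0.0120) or 3 (0.0344) in all groups and was lost without replicate 2 (0.124). Without CM-JAKi replicate 1, the PSC4 library, the lower level in CM-JAKi against CM passed, at a log2 fold change of -1.41 and an adjusted p of 0.0135. Without CM replicate 3 it was -0.65 (0.252), and without replicate 3 in all groups -0.46 (0.521). The call with the block in CM-JAKi against CM was lost without replicate 2 (-0.93, adjusted p 0.196) or replicate 3 (-0.55, 0.145) in all groups. The difference between lines in that comparison, PSC4 minus PSC5, was 1.28 on the log2 scale and did not pass (edgeR adjusted p 0.408).

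Other genes of the angiopoietin pathway gave 2 lower and 0 higher of 4 tested in CM against MG-CM. Over all genes edgeR called 5.39% lower and 4.85% higher in that comparison, and 8.93% lower and 10.1% higher in CM-JAKi against CM. With the block these shares were 12.8% and 11.6%, and 15.6% and 18.6%. In CM-JAKi against MG-CM they were 0.72% and 0.286%, or 2.4% and 1.85% with the block. The same shares stand beside the counts of the lists below. Angpt2, whose product can block TIE2, was 38.7, 20.1 and 14.5 CPM in MG-CM medium, 3.68, 8.52 and 4.56 in CM medium, and 18.0, 16.0 and 8.74 in CM-JAKi medium. It was lower in every CM library than in any MG-CM or CM-JAKi library. The fall was 2.13 ± 0.46, and edgeR gave an adjusted p of 0.0249. The value for the inhibitor was 1.35 ± 0.45, with an adjusted p of 0.0678 (0.0364 with the replicate block). Tek, the gene of TIE2 itself and mainly endothelial, was low at 2.5, 2.54 and 2.12 CPM in MG-CM medium, 0.521, 0.867 and 0.853 in CM medium and 1.38, 1.65 and 2.90 in CM-JAKi medium. It fell by 1.67 ± 0.34 in CM (adjusted p 0.0224, edgeR) and rose by 1.39 ± 0.34 with the inhibitor (0.0255). Angpt4 and Ptprb, a phosphatase of TIE2, were not called in any comparison.

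The median log2 fold change of these 4 genes was -1.42 in CM against MG-CM and 1.37 in CM-JAKi against CM, where 1 was called higher, or 2 with the block. In CM, Angpt2 lost its call without MG-CM replicate 1 or 2 or CM replicate 1 or 3, and Tek without MG-CM replicate 1 or 2 or CM replicate 1. The rise of Tek lost its call without CM replicate 1 or CM-JAKi replicate 2 or 3. Among 10 endothelial markers Cdh5 stayed at 0 to 15 counts, and the sum over the list was 13.3 to 17.7 CPM in MG-CM, 12.1 to 14.6 in CM and 14.2 to 24.1 in CM-JAKi. Emcn, an endothelial sialomucin, had 27, 27 and 14 counts in MG-CM medium, 0, 0 and 1 in CM medium and 205, 427 and 91 in CM-JAKi medium. It was called lower in CM against MG-CM (edgeR adjusted p 0.0114, lost without MG-CM replicate 2) and higher in CM-JAKi against CM (0.000487). What part endothelial transcripts have in the level of Tek was not tested.

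**Figure D3:**
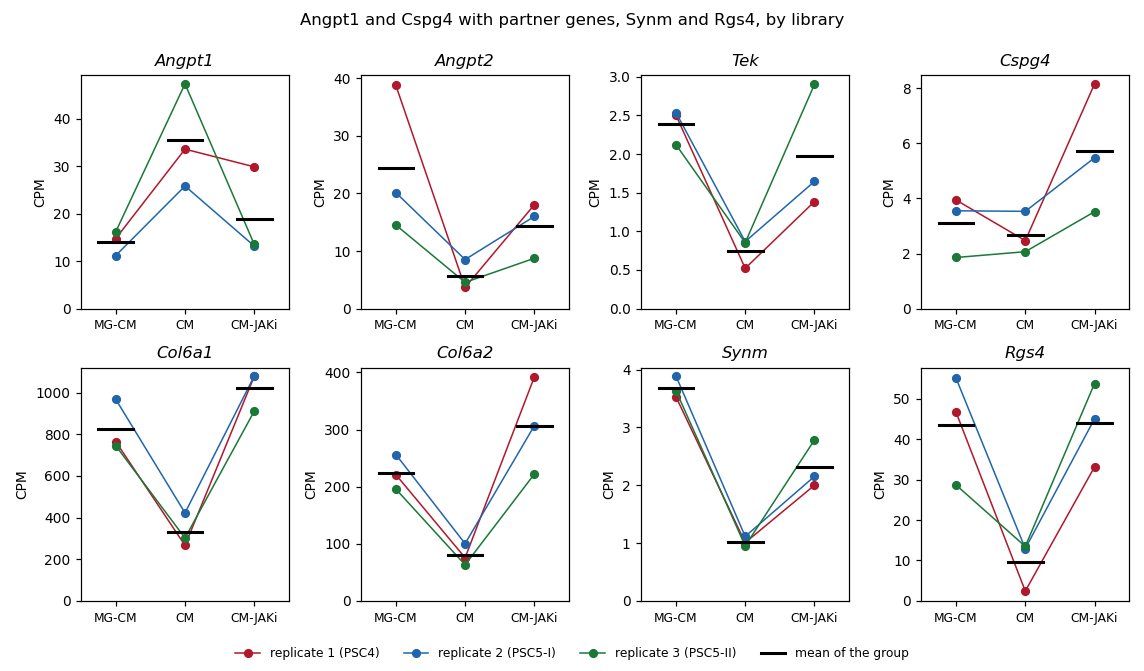
Level in every library, as CPM on a linear axis from 0, of Angpt1, Angpt2 and Tek, of Cspg4 with collagen VI genes Col6a1 and Col6a2, and of Synm and Rgs4; points are libraries, lines join the same replicate number and black bars are group means. Angpt1 has its highest mean in CM, and Angpt2, Tek, Col6a1, Col6a2, Synm and Rgs4 have their lowest mean there.

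Cspg4 encodes NG2, a chondroitin sulphate proteoglycan of the pericyte surface that binds collagen VI. Its level was 3.94, 3.55 and 1.86 CPM in MG-CM medium, 2.47, 3.53 and 2.07 in CM medium, and 8.16, 5.47 and 3.52 in CM-JAKi medium. Within each replicate number the inhibitor library was the highest of the 3, but the lowest inhibitor library lay just below the highest library of CM. The log2 fold change was 1.09 ± 0.38 in CM-JAKi against CM, and edgeR gave an adjusted p of 0.0798. With the replicate block it was 1.04 with an adjusted p of 0.0140, a call lost without replicate 2 (0.0695) or replicate 3 (0.0553) in all groups. It was -0.21 ± 0.39 in CM against MG-CM (adjusted p 0.764) and 0.87 ± 0.38 in CM-JAKi against MG-CM (unadjusted p 0.0485, adjusted p 0.464).

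Mcam encodes CD146, an adhesion molecule of pericytes and endothelium. Its level was 30.0, 38.0 and 52.2 CPM in MG-CM medium, 23.2, 25.9 and 31.3 in CM medium, and 24.1, 32.7 and 20.5 in CM-JAKi medium. It was lower in CM than in MG-CM within each replicate number, and the 2 media overlapped because the highest CM library exceeded the lowest MG-CM library. Its log2 fold change was -0.58 ± 0.23 in CM against MG-CM (adjusted p 0.144 by edgeR), -0.64 ± 0.23 in CM-JAKi against MG-CM (unadjusted p 0.0238, adjusted p 0.346) and -0.06 ± 0.23 in CM-JAKi against CM (adjusted p 0.885). The last value turned to 0.04 with library size alone as the scaling.

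Of 9 tested partners of NG2 and CD146, 2 were lower and 0 higher in CM against MG-CM, and 2 were higher and 1 lower in CM-JAKi against CM. With the block these counts were 3 lower in the first comparison, 5 higher in the second, and 1 lower, Lgals3, in CM-JAKi against MG-CM (adjusted p 0.00515). Col6a1, a chain of the NG2 ligand collagen VI, was 765, 968 and 745 CPM in MG-CM medium and 266, 423 and 302 in CM medium. The MG-CM and CM libraries were far apart. Col6a1 fell by 1.32 ± 0.19 in CM (edgeR adjusted p 0.00987) and rose by 1.63 ± 0.19 with the inhibitor (0.00132). Col6a2, the second chain, fell by 1.49 ± 0.23 (0.0106) and rose by 1.95 ± 0.24 (0.00174). Lgals3, the gene of the lectin galectin-3, fell by 1.07 ± 0.27 with the inhibitor (0.0293). Both calls of Col6a1 passed without each library in turn, Col6a2 lost the first without MG-CM replicate 2, and Lgals3 lost its call without CM replicate 1 or 2 or CM-JAKi replicate 2 or 3. Medians of the 9 were -0.21, 0.23 and 0.03 in the 3 comparisons.

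Nes and Des, the intermediate filament genes among the markers, varied with the replicate number and little with the medium. Nes encodes nestin, a filament of progenitor and activated mesenchymal cells, and was 65.9, 112 and 145 CPM in MG-CM medium, 66.9, 107 and 127 in CM medium, and 70.1, 124 and 164 in CM-JAKi medium. Des encodes desmin, the filament classically used to identify stellate cells, and was 0.960, 2.16 and 2.01 CPM in MG-CM medium, 1.01, 2.66 and 2.33 in CM medium, and 0.923, 3.32 and 2.67 in CM-JAKi medium. Those levels of Des rest on 28 to 111 counts per library. In both genes every PSC4 library lay below every PSC5 library, whatever the medium. Within line PSC5, Nes was also lower in PSC5-I (107 to 124 CPM) than in PSC5-II (127 to 164), while the 2 overlapped for Des.

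Between lines, with medium in the fit, Nes was lower in PSC4 than in PSC5 by a log2 fold change of -0.94 ± 0.12 (edgeR adjusted p 0.00315) and Des by -1.37 ± 0.19 (0.00360). They were 2 of 8 markers called lower, beside 10.5% of all genes, and 0 of 8 were called higher, beside 10.5%. At an unadjusted p under 0.05 and by DESeq2, 0 were higher too, and those shares of all genes are not given here. Leaving out any 1 library kept both calls. The 3 libraries of PSC4 share 1 line and the 6 of PSC5 another, so the test covers the spread between these libraries and not between independently isolated lines. Media gave Nes log2 fold changes of -0.10 ± 0.37, 0.25 ± 0.37 and 0.15 ± 0.37 in the 3 comparisons, in the order in which they were introduced, with adjusted p values of 0.892, 0.670 and 0.946 by edgeR. With the replicate block, the value for CM-JAKi against CM was 0.22 ± 0.07 with an adjusted p of 0.0493, a call lost without replicate 2 (0.234) or replicate 3 (0.321) in all groups. Media gave Des 0.23 ± 0.54, 0.20 ± 0.53 and 0.43 ± 0.54 (adjusted p 0.824, 0.823 and 0.880).

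**Figure D4:**
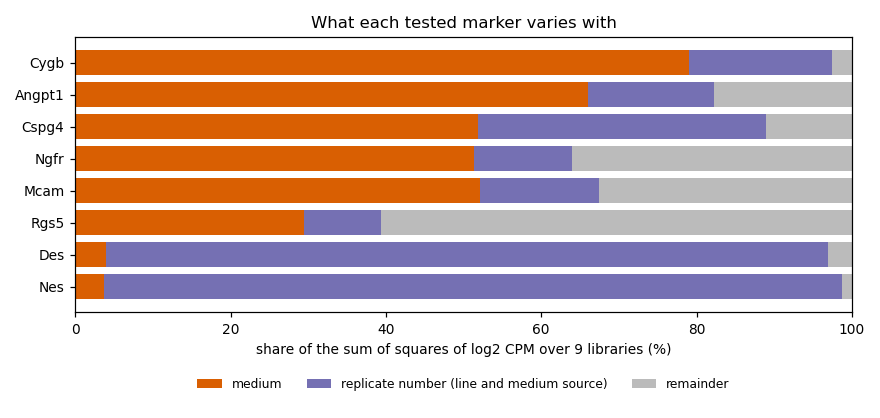
Share of each tested marker's variation in log2 CPM over the 9 libraries that lies between media, between replicate numbers and in neither, in percent of the sum of squares. For Nes and Des over 90% lies between replicate numbers, for Cygb and Angpt1 most lies between media, and for Rgs5 most lies in neither.

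As shares of the sum of squares of log2 CPM, 94.97% for Nes and 92.9% for Des lay between replicate numbers. The medium held 79.0% for Cygb, 66.0% for Angpt1, 52.1% for Mcam, 51.8% for Cspg4 and 51.4% for Ngfr. The share for Ngfr rests on only 2 to 11 counts per library. For Rgs5 the medium held 29.5% and the number 9.91%. Over all tested genes the median shares were 44.2% for the medium and 26.7% for the number.

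Other intermediate filament genes gave 3 lower and 0 higher of 8 tested in CM against MG-CM, and 2 higher and 0 lower in CM-JAKi against CM. Synm encodes synemin, a filament protein that assembles with desmin and vimentin. It was 3.53, 3.89 and 3.64 CPM in MG-CM medium, 1.01, 1.12 and 0.951 in CM medium, and 2.00, 2.15 and 2.78 in CM-JAKi medium. The 3 media did not overlap, and replicates within each were close together. Synm fell by 1.84 ± 0.21 in CM (edgeR adjusted p 0.00638) and rose by 1.17 ± 0.21 with the inhibitor (0.00825), and both calls passed without each library in turn. Vim, vimentin, fell by 1.03 ± 0.26 in CM (0.0415), and its value with the inhibitor was 0.73 ± 0.26 (0.0801, and 0.00200 with the block). Lmna, lamin A/C of the nuclear envelope, fell by 0.72 ± 0.12 (0.0122) and rose by 0.61 ± 0.12 (0.0112).

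Without MG-CM replicate 2 the falls of Vim and Lmna lost their calls. Vim lost its call also without CM replicate 1 or 2 or MG-CM replicate 3, and the rise of Lmna was lost without CM-JAKi replicate 2. The block gave 4 lower in the first comparison and 3 higher in the second. The median log2 fold change of the 8 genes was -0.31 in CM against MG-CM and 0.41 in CM-JAKi against CM.

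Rgs5 encodes a regulator of G-protein signalling that is abundant in pericytes. Its level was 4.83, 2.91 and 2.42 CPM in MG-CM medium, 1.04, 2.04 and 3.71 in CM medium, and 9.60, 2.24 and 3.67 in CM-JAKi medium. PSC4 held both the lowest and the highest library, in CM and CM-JAKi, while the PSC5 libraries stayed in a narrow band. The log2 fold changes were -0.58 ± 0.61 in CM against MG-CM, 1.19 ± 0.61 in CM-JAKi against CM and 0.61 ± 0.60 in CM-JAKi against MG-CM, with adjusted p values of 0.581, 0.200 and 0.831 by edgeR. Without replicate 1 in all groups the first value was 0.10.

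The response of Rgs5 was compared between lines by the difference of log2 fold changes, PSC4 minus PSC5. It was -2.31 ± 0.65 for CM against MG-CM (edgeR adjusted p 0.195) and 3.16 ± 0.65 for CM-JAKi against CM (0.138). By this test 0 of 8 markers were called in either comparison, beside 0.228% and 0.367% of all genes. Rgs5 alone had an unadjusted p under 0.05 in each (0.00972 and 0.00185), and the share of all genes at that level is not given here. For CM-JAKi against CM, DESeq2 called Rgs5, with a difference of 3.15 and an adjusted p of 0.00630, and edgeR without CM replicate 2 gave 3.52 with an adjusted p of 0.0422. PSC4 has 1 library per medium, so its spread is taken to be that of PSC5.

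Among 9 tested relatives of Rgs5, 1 was higher and 2 lower in CM against MG-CM, and 3 were higher and 1 lower in CM-JAKi against CM. Rgs4, also a pericyte gene and the neighbour of Rgs5 on chromosome 1 (GRCm38.p6), was 46.7, 55.1 and 28.7 CPM in MG-CM medium, 2.43, 12.9 and 13.5 in CM medium, and 33.1, 45.0 and 53.8 in CM-JAKi medium. All CM libraries lay below those of both other media, as was not so for Rgs5. Rgs4 fell by 2.17 ± 0.54 in CM (edgeR adjusted p 0.0382) and rose by 2.19 ± 0.54 with the inhibitor (0.0254). Rgs2 rose by 1.60 ± 0.30 in CM (0.0176), and its value with the inhibitor was -0.10 (0.839). Rgs12 fell by 0.71 ± 0.11 in CM (0.00992) and rose by 0.79 ± 0.11 with the inhibitor (0.00270). Rgs3 rose by 0.75 ± 0.21 (0.0406) and Rgs16 fell by 0.96 ± 0.23 (0.0231) with the inhibitor.

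Without MG-CM replicate 2 the CM calls of Rgs2, Rgs4 and Rgs12 were lost, and that of Rgs4 was lost also without MG-CM replicate 1 or 3 or CM replicate 2 or 3. With the inhibitor, Rgs4 lost its call without CM-JAKi replicate 2 or 3, Rgs3 without each library but CM-JAKi replicate 3, and Rgs16 without each library but CM replicate 2. The block gave 2 higher and 3 lower in CM against MG-CM, 4 higher and 1 lower in CM-JAKi against CM, and 1 higher, Rgs2, in CM-JAKi against MG-CM (adjusted p 0.0295). Medians of the 9 were -0.05 and 0.45.

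Abcc9 and Kcnj8 encode SUR2 and Kir6.1, the subunits of the ATP-sensitive potassium channel of pericytes and vascular smooth muscle. They are next to each other on chromosome 6 of GRCm38.p6. Abcc9 had 2, 0 and 1 counts in MG-CM medium, 15, 1 and 2 in CM medium, and 0, 0 and 1 in CM-JAKi medium. Kcnj8 had 2, 0 and 0 counts in MG-CM medium, 9, 1 and 2 in CM medium, and 1, 1 and 0 in CM-JAKi medium. Both genes were near zero, and CM replicate 1, a PSC4 library, held 15 of 22 counts of Abcc9 and 9 of 16 of Kcnj8. The other 8 libraries held 7 counts of each. The endothelial cadherin gene Cdh5 was highest in the same library, with 15 counts there and 0 to 3 in each other library, and its part in these counts was not tested.

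The start regions of these neighbours are shown because their few counts fell in the same library. Each is 200 bases of the RefSeq promoter table (GRCm38.p6), beginning 250 bases before the gene's start, from chr6:142571665-142571864 for Kcnj8 and chr6:142702325-142702524 for Abcc9, both on the minus strand, with CG pairs in capitals:
Kcnj8: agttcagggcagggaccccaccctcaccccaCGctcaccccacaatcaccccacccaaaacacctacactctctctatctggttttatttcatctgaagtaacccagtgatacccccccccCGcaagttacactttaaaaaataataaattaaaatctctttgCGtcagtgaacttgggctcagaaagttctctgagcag
Abcc9: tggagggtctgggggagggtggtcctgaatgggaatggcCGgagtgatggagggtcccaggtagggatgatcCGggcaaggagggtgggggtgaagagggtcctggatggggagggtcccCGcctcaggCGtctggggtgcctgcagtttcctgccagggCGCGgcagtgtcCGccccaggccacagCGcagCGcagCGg

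Kcnj8 had 3 CG pairs in this stretch and Abcc9 had 10, beside a median of 4 in the same bases of all windows in the table. In windows of 300 bases, 8 of the 10 markers could be searched for TTCNNNGAA, the gamma-activated site that STAT factors bind, and for the CArG box of serum response factor, on both strands. Neither was found in any of the 8 windows, while 8.3% and 1.63% of all windows hold them. Cygb and Angpt1 were not searched.

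Summed over libraries and scaled to depth, Abcc9 counts in CM were 5.58 times those in MG-CM, with an exact 95% interval of 1.63 to 29.6 that covers counting error only. For Kcnj8 the ratio was also 5.58, with an interval of 1.24 to 51.3. Without replicate 1, Abcc9 had 3 counts in CM and 1 in MG-CM, a ratio of 2.67 with an interval of 0.215 to 140, and Kcnj8 had 3 and 0. The ratios thus rested on 1 library. In an edgeR fit with no filter, adjusted p values in CM against MG-CM were 0.279 for Abcc9 and 0.288 for Kcnj8. The pancreatic-type subunit gene Abcc8 had 0 to 3 counts, and Kcnj11 was not analysed here.

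**Figure D5:**
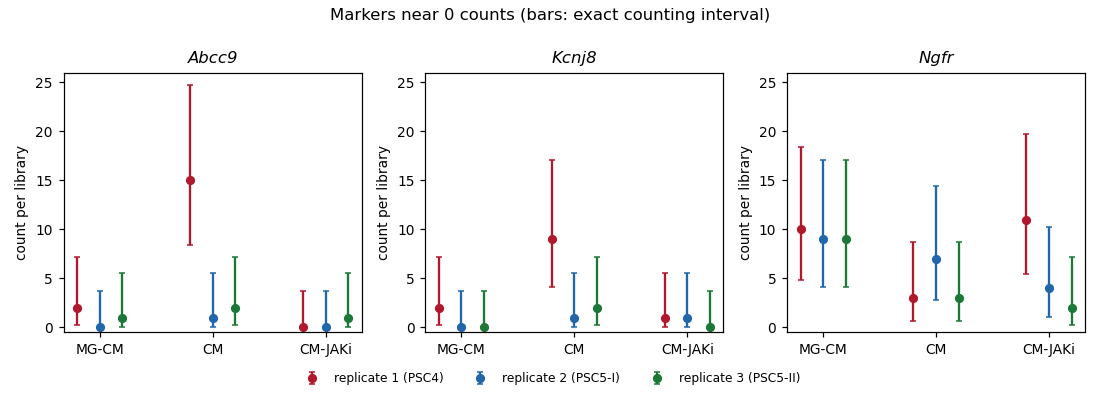
Raw counts of Abcc9, Kcnj8 and Ngfr in every library by medium, on a linear axis, with bars for the exact 95% counting interval. CM replicate 1 holds 15 counts of Abcc9 and 9 of Kcnj8, and no library exceeds 11 counts of Ngfr.

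Ngfr encodes p75, the low-affinity neurotrophin receptor that hepatic and pancreatic stellate cells share with Schwann cells and neurons. It had 10, 9 and 9 counts in MG-CM medium, 3, 7 and 3 in CM medium, and 11, 4 and 2 in CM-JAKi medium. Each CM library had fewer than any MG-CM library, and CM-JAKi spanned both. Ngfr reached the filter's level in 3 libraries, 2 of MG-CM and 1 of CM-JAKi. Its log2 fold change was -1.20 ± 0.57 in CM against MG-CM (adjusted p 0.204 by edgeR), 0.36 ± 0.60 in CM-JAKi against CM (0.709) and -0.84 ± 0.55 in CM-JAKi against MG-CM (0.682). The second value was -0.47 without CM-JAKi replicate 1. Schwann and neural markers summed to 101 to 137 CPM in MG-CM, 43.8 to 83.4 in CM and 57.3 to 74.8 in CM-JAKi, mostly Tubb3, with Sox10 near zero, and their part in the level of Ngfr was not tested.

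Of 12 tested neurotrophin genes 1 was lower and 0 higher in CM against MG-CM, and 2 were higher and 0 lower in CM-JAKi against CM. With the block these counts were 5 lower in the first, 4 higher and 1 lower in the second and 2 lower in CM-JAKi against MG-CM.

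Sort1 encodes sortilin, a co-receptor of p75 for neurotrophin precursors. It was 124, 113 and 114 CPM in MG-CM medium, 19.7, 64.6 and 68.2 in CM medium, and 154, 147 and 142 in CM-JAKi medium. The 3 media did not overlap, with CM lowest and CM-JAKi highest. It rose by 1.54 ± 0.37 with the inhibitor (edgeR adjusted p 0.0239), and its value in CM was -1.20 (0.0740). Ngfrap1, a protein that binds the p75 tail, fell by 0.29 ± 0.07 in CM (0.0289) and rose by 0.32 ± 0.07 with the inhibitor (0.0143). Leaving out any 1 library ended its CM call, and leaving out CM-JAKi replicate 2 or 3 ended the inhibitor calls of both Sort1 and Ngfrap1. Of the receptor genes, Ntrk3 had 2 to 65 counts and Ntrk2 had 0 to 3, and edgeR did not call Ntrk3. With the block Ntrk3 was lower in CM against MG-CM (adjusted p 0.00570) and in CM-JAKi against MG-CM (0.0234). The ligand genes Bdnf, Ntf3 and Ntf5 were not called, and Bdnf was lower in CM against MG-CM with the block (0.00876). Medians of the 12 were -0.38 and 0.30.

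Among 24 further pericyte and mural genes, 19 were tested. In CM against MG-CM 2 were higher and 2 lower, and in CM-JAKi against CM 3 were higher and 5 lower, with 6 higher and 5 lower in the first under the block, 7 higher and 6 lower in the second, and 3 higher and 2 lower in CM-JAKi against MG-CM, from 0 without the block. Pdgfrb, a PDGF receptor of mural cells that fibroblasts also carry, was 396 to 742 CPM over the 9 libraries and was not called. Aoc3, an amine oxidase of vascular mural cells, was 3.26, 7.24 and 7.08 CPM in MG-CM medium, 0.174, 0.712 and 0.918 in CM medium, and 3.32, 6.55 and 6.92 in CM-JAKi medium. It was low in all CM libraries, and the other media covered nearly the same range. Aoc3 fell by 3.27 ± 0.57 (edgeR adjusted p 0.0144) and rose by 3.20 ± 0.57 with the inhibitor (0.00783). Ndufa4l2, a mitochondrial protein and pericyte marker, went the other way, with a rise of 2.08 ± 0.37 (0.0147) and a fall of 2.59 ± 0.38 (0.00384). Its counts were few, at 8, 11 and 8 in MG-CM medium, 54, 34 and 35 in CM medium, and 7, 5 and 8 in CM-JAKi medium. The integrin gene Itga7 rose by 0.59 ± 0.15 in CM (0.0416).

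With the inhibitor, the endothelin receptor gene Ednrb fell by 3.29 ± 0.71 (edgeR adjusted p 0.0157). Ednrb had 31, 62 and 18 counts in CM medium and only 2, 7 and 2 in CM-JAKi medium. Gucy1a3, a subunit of the nitric oxide receptor, had 4, 43 and 13 counts in MG-CM medium, 0, 2 and 2 in CM medium, and 15, 181 and 462 in CM-JAKi medium. It was near zero in CM, and its adjusted p against CM was 0.0161. Notch3 missed the threshold in CM against MG-CM (-1.24 ± 0.37, adjusted p 0.0692) and in CM-JAKi against CM (1.21 ± 0.37, 0.0537), and passed both with the block (0.00494 and 0.00323). Without MG-CM replicate 2 the CM calls of Aoc3, Ndufa4l2 and Itga7 were lost, and Itga7 lost its call also without MG-CM replicate 1 or any CM library. Ednrb lost its call without CM-JAKi replicate 3 and Gucy1a3 without CM replicate 1. Medians of the 19 were -0.15, 0.32 and -0.03.

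Of 14 further stellate genes 11 were tested, with 3 lower and 0 higher in CM against MG-CM and 3 higher and 1 lower in CM-JAKi against CM. Synm and Vim, given above, were lower in CM. Hhip, which binds hedgehog ligands, had 41, 20 and 23 counts in MG-CM medium and 10, 7 and 6 in CM medium. The MG-CM counts were all above those of CM. It fell by 1.95 ± 0.45 (edgeR adjusted p 0.0304), a call lost without any 1 of the 6 libraries. With the inhibitor Pparg, a nuclear receptor linked to the quiescent state, rose by 1.44 ± 0.35 (0.0245) and Plin2, a coat protein of lipid droplets, fell by 0.71 ± 0.21 (0.0489).

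Both calls were lost without CM replicate 1, and without some other libraries. For Pparg these were CM replicate 3 and CM-JAKi replicates 2 and 3, and for Plin2 CM replicate 2 and each CM-JAKi library. The block gave 4 lower in the first comparison, and 4 higher and 2 lower in the second. Medians of the 11 were -0.60 and 0.73.

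The genes whose profile over the 9 libraries was most like that of a called marker were named by the smallest root mean square difference of centred log2 CPM, among 10148 genes. For Cygb these were Col6a2 at 0.30 and Cxx1c at 0.35. The nearest to Angpt1 were Adamts7 at 0.23, Ttc39c at 0.27 and Il1rl2 at 0.29. Cygb itself ranged over 2.95 log2 units between libraries and Angpt1 over 2.07, so these neighbours followed most but not all of the marker's course.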

How the data were processed

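Ribosome-depleted total RNA was sequenced from 9 stranded libraries. The deposited values were taken to be expected counts made by the authors, because RSEM is named, and are whole numbers per gene symbol whose totals differ between libraries. RSEM 1.2.29, STAR 2.5.1b and DESeq2 appear in the submitters' processing notes with the builds mm9 and NCBIM37, with no role given. Estimated counts can divide reads between similar genes.

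The fits used edgeR 4.0.16 in R 4.3.3 (quasi-likelihood test, robust, all 9 libraries, a term per medium), limma 3.58.1 and, as an alternative, DESeq2 1.42.0. Genes were kept by filterByExpr (minimum count 10, minimum total 15), scaled by TMM, and called at a Benjamini-Hochberg adjusted p under 0.05 over all genes kept. SE is the fold change divided by the root of F. Scaling by library size alone moved the median over all genes to -0.07, 0.10 and 0.03 (log2) for the effect of CM, of the inhibitor in CM, and of CM-JAKi set against the control. Lines were compared with medium in the fit, and the line-by-medium difference as an interaction. The scripts were tested on simulated data.

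Same-numbered libraries share a line, and CM and CM-JAKi a medium source, so numbers pair them. Deviations from group means correlated at 0.291 to 0.680 in 9 same-number pairs and at -0.54 to 0.279 in 18 others. Centring on group means lowers the values of other pairs, so the 2 ranges are not independent. Every negative value was between a PSC4 and a PSC5 library. Within PSC5, same-number pairs ran from 0.291 to 0.457 and the others from 0.00871 to 0.279. A second fit took the number as a block, and its value is given where it changed the call of a marker or the count of a list in the report.

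Members and lists were chosen with earlier results of these data known. From the other lists, named genes were those called, up to 4 per list and comparison by smallest p, and partners of a marker. For each called marker the 3 nearest profiles were named among genes whose mean log2 CPM reached 2. Sequences are from RefSeq (GRCm38.p6), whose coordinates do not apply to the deposited build. Lengths are from GENCODE. Alternatives were other scalings, filters, tools and fits, and leaving out libraries. Single values of some genes that this rule names are not reported here.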

Additional observations from a re-analysis of the deposited data

How the results depend on the processing

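With 3 libraries per medium and 2 lines in all, no result extends beyond these cultures, and levels of Des, Ngfr, Abcc9 and Kcnj8 are limited by few counts. Where a value moved, the cause was not tested. Of the alternatives for single markers, 499 kept direction and side of the threshold, 13 passed it, 17 lost it and 27 turned the sign of a value that had not passed. Most of the 499 were values not called in the main fit. All 17 losses fell on Angpt1 and Cygb in CM against MG-CM and on Cygb in CM-JAKi against CM. Markers called higher in CM against MG-CM went from 1 to 0 with library size alone, with no filter, without replicate 2 or 3 in all groups and, chosen after seeing the data, with the replicate block without replicate 2 in all groups (adjusted p of Angpt1 0.124). Leaving out 1 library gave 0 to 1 higher and 0 to 1 lower, and the latter was 0 without replicate 1 or 2 in all groups. In CM-JAKi against CM, markers called higher were 2 by DESeq2, 3 with the replicate block and 3 with the block without replicate 1 in all groups. With no block they were 0 without replicate 2 in all groups. Those called lower were 1 by DESeq2, with the block, with a cell line term, without replicate 1 in all groups and with the block without replicate 1, and 0 to 1 when 1 library was left out. In CM-JAKi against MG-CM the block without replicate 1 called 1 higher, Cygb at 0.55 (adjusted p 0.0167). For PSC4 against PSC5, 0 to 1 were called higher when 1 library was left out. For the line difference in CM-JAKi against CM, DESeq2 called 1 higher, and leaving out 1 library gave 0 to 1. Libraries of PSC4 could not be left out of that fit, since 1 per medium carries the term. The block changed no other call of a marker.

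Signs turned for uncalled values only. Leaving out 1 library at a time, log2 fold changes in CM against MG-CM ran from -0.36 to 0.17 for Nes and from -0.062 to 0.55 for Des. In CM-JAKi against CM they ran from -0.47 to 0.82 for Ngfr, -0.044 to 0.53 for Nes, -0.16 to 0.59 for Des and -0.27 to 0.082 for Mcam. In CM-JAKi against MG-CM they ran from -0.14 to 0.43 for Nes, -0.067 to 0.63 for Angpt1 and -0.19 to 0.97 for Rgs5. For PSC4 against PSC5 they ran from -0.15 to 0.78 for Ngfr, -0.013 to 0.67 for Angpt1 and -0.097 to 1.31 for Rgs5. Without replicate 1 in all groups, Rgs5 was 0.10 and Cspg4 0.041 in CM against MG-CM (0.039 and 0.056 with the block), Ngfr was -0.63 in CM-JAKi against CM (-0.64 with the block) and Angpt1 was -0.032 in CM-JAKi against MG-CM. Mcam in CM-JAKi against CM was 0.041 with library size alone, 0.21 without replicate 3 in all groups and 0.19 with the block too.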

Other observations

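Fibroblast and other cell type markers were read in the same libraries. Of 10 fibroblast genes, 1 was higher and 1 lower in CM against MG-CM, and 2 were higher and 1 lower in CM-JAKi against CM. With the replicate block 2 were lower in the first comparison, 5 higher in the second and 4 higher in CM-JAKi against MG-CM. The matrix proteoglycan gene Dcn rose by 2.86 ± 0.53 in CM (edgeR adjusted p 0.0175) and fell by 2.77 ± 0.53 with the inhibitor (0.0102). Its rise lost the call without MG-CM replicate 2 or 3, and its fall passed without each library in turn. Col1a1 and Col1a2, the chains of collagen I, rose by 0.74 ± 0.16 (0.0147) and 1.30 ± 0.20 (0.00473) with the inhibitor, also without each library in turn.

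Emcn, whose counts are given with Tek, rose in CM-JAKi against MG-CM by 3.24 ± 0.53 (edgeR adjusted p 0.0280), a call lost without any 1 MG-CM library or CM-JAKi replicate 2. Leukocyte markers summed to 22.8 to 34.9 CPM in MG-CM, 34.0 to 118 in CM and 15.9 to 32.6 in CM-JAKi, mostly Cd14, a receptor for bacterial lipopolysaccharide. Cd14 fell by 1.74 ± 0.50 with the inhibitor (0.0410), a call lost without CM replicate 1 or 3 or CM-JAKi replicate 2 or 3. Epithelial markers summed to 34.6 to 49.2, 34.4 to 37.0 and 28.6 to 45.0 CPM. The mucin gene Muc1 fell by 1.83 ± 0.48 with the inhibitor (0.0326), a call kept only without CM-JAKi replicate 1 among the single libraries left out. Among mesothelial markers Wt1 fell by 2.89 ± 0.83 with the inhibitor (0.0415), a call lost without CM replicate 1 or 3 or CM-JAKi replicate 2 or 3. Wt1 had 42, 18 and 59 counts in CM medium and only 12, 1 and 3 in CM-JAKi medium. With the replicate block the 6 tested epithelial genes gave 1 lower in CM against MG-CM, 1 higher and 1 lower in CM-JAKi against CM and 1 lower in CM-JAKi against MG-CM. The block gave 1 higher and 1 lower of 3 mesothelial genes in CM against MG-CM, and the same counts in CM-JAKi against CM. Of 4 leukocyte genes 1 was higher with it in CM against MG-CM. Of 5 Schwann and neural genes 1 was lower with it in CM against MG-CM and 1 higher in CM-JAKi against CM.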
